A study of Mus musculus with 18 samples.

Results

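The core circadian clock was followed as 10 genes in epididymal fat and liver of mice on 3 diets. The genes were chosen by name, as the textbook members of the clock's feedback loops, with earlier results of these data known. All 10 were found among the 23474 genes of the table. They are the activators Arntl (also called Bmal1), Clock and Npas2, and the repressors Per1, Per2, Per3, Cry1, Cry2, Nr1d1 and Nr1d2. RNA came from male C57BL/6J mice aged 17 weeks, kept in a cycle of 12 h light and 12 h dark and assigned to a diet at 5 weeks of age, with 10 mice per diet. For 12 weeks the food was the normal diet (ND), the high-fat diet (HFD), or that high-fat food with 0.25% by weight of a green tea ethanol extract mixed in (GT). No group received the extract with the normal diet. Each of the 6 groups of tissue and diet had 3 libraries of polyA RNA, 18 in all. The labels do not say whether the libraries came from separate mice, or whether fat and liver came from the same mice, so each p-value reflects how far these samples vary, part of which may be technical. The hour at which tissue was taken is not in the labels used here.

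The clock runs in nearly every cell as a transcriptional loop. ARNTL pairs with CLOCK or NPAS2 and switches on the Per, Cry and Nr1d genes through E-box sequences. PER and CRY proteins then return to the nucleus and block that pair, while the nuclear receptors NR1D1 and NR1D2 (REV-ERB alpha and beta) silence Arntl, Npas2 and Clock through sites that the activating receptor RORA also binds. As a result transcripts of the activators and of the repressors peak at different times of day, and in liver and fat the loop times much of lipid and glucose metabolism. Values below are FPKM (fragments per unit of transcript length and of mapped fragments), a level corrected for gene length. Differences, fitted with limma on log2(FPKM + 1), are printed as log2 ± SE, a scale that understates changes of low genes, and a gene was called where the p-value adjusted over all genes tested (Benjamini-Hochberg) was below 0.05.

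A library of fat stood apart from the rest. Adipose ND 1 carried transcripts of testis and of epididymis: 10 germ cell markers summed to 98023 FPKM in it, against 2839 in ND 3, 1998 in HFD 1 and at most 155.1 in the other adipose libraries, and all 10 reached 1 FPKM in ND 1, ND 2, ND 3 and HFD 1. The 7 epididymis markers summed to 18302 FPKM in ND 1, to 1177 in HFD 2, of which Crisp1 gave 1172, and to at most 37.67 in the other fat libraries. The 7 adipocyte markers of ND 1, Adipoq and Lep among them, summed to 4170 FPKM, against 16708 to 31738 in the other 8. Each diet comparison in fat is therefore given without ND 1 (8 libraries) and with it (9 libraries), while correlations in fat are over the 8. The 7 hepatocyte markers summed to between 16818 and 49801 FPKM in liver. The lowest was HFD 3, where Alb was listed at 0, so a 0 can be a failed estimate. Of 6 skeletal muscle markers 5, all but Acta1, were listed. All 5 reached 1 FPKM in liver HFD 2, HFD 3 and GT 3, with sums of 89.59, 18.47 and 42.73 FPKM, and at most 1 did so in another liver library. Summed FPKM ran from 527904 to 608819 in 8 fat libraries, was 1002765 in ND 1, and ran from 680168 to 930139 in liver. Read numbers were not used here.

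Sequence around the gene starts was searched for motifs of the loop. Of the 10 genes 9, all but Per2, had an entry among the RefSeq promoters (GRCm38.p6, 250 bases before to 50 after a start), 13 entries in all. Windows of 5 genes whose values are followed below are printed 5′ to 3′ on the gene's strand, with the motif each is shown for in capitals. The motifs searched on both strands were the E-box CACGTG, bound by ARNTL pairs, the D-boxes TTATGTAA and TTACGTAA, bound by DBP, TEF, HLF and NFIL3, and the ROR hexamer AGGTCA with its core GGTCA, which it contains. Of 32851 promoters 7.15% hold CACGTG, 0.938% TTATGTAA, 0.119% TTACGTAA, 16.3% AGGTCA and 40.5% GGTCA. Per3 is shown for 2 D-boxes (chr4:151044791-151044890, minus strand), Per1 for an E-box beside a hexamer that reads TGACCT on this strand (chr11:69098759-69098838, plus strand), Cry1 for an E-box (chr10:85185075-85185154, minus strand), Arntl for 2 ROR cores (chr7:113207245-113207324, plus strand) and Nr1d2 for a hexamer (chr14:18239137-18239216, minus strand).
Per3: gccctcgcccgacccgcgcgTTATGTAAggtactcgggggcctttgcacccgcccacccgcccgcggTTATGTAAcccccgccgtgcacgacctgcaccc
Per1: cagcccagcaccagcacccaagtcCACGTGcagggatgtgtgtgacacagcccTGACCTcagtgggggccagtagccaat
Cry1: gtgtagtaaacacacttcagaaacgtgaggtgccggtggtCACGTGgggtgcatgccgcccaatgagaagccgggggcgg
Arntl: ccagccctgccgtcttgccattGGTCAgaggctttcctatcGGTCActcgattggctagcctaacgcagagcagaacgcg
Nr1d2: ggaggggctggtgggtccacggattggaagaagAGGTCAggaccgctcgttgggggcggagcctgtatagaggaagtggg

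The D-boxes of Per3 begin 205 and 158 bases before its start, and the E-boxes of Per1 and Cry1 166 and 60 bases before theirs. In Cry1 a core GGTCA, not marked in capitals as such, overlaps the E-box by 2 letters. Among the clock genes with an entry, CACGTG was found in Per1 and Cry1 only, and Nr1d1 held none of the motifs. The core GGTCA was found in each of the others, so it is not particular to Arntl. The full hexamer AGGTCA was found in Per1, Nr1d2, Clock and Arntl. In Clock it begins 119 bases before the start, and in Arntl 31 bases after the start of another entry than the one printed. Each match describes these letters only, and binding was not measured.

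**Figure D1:**
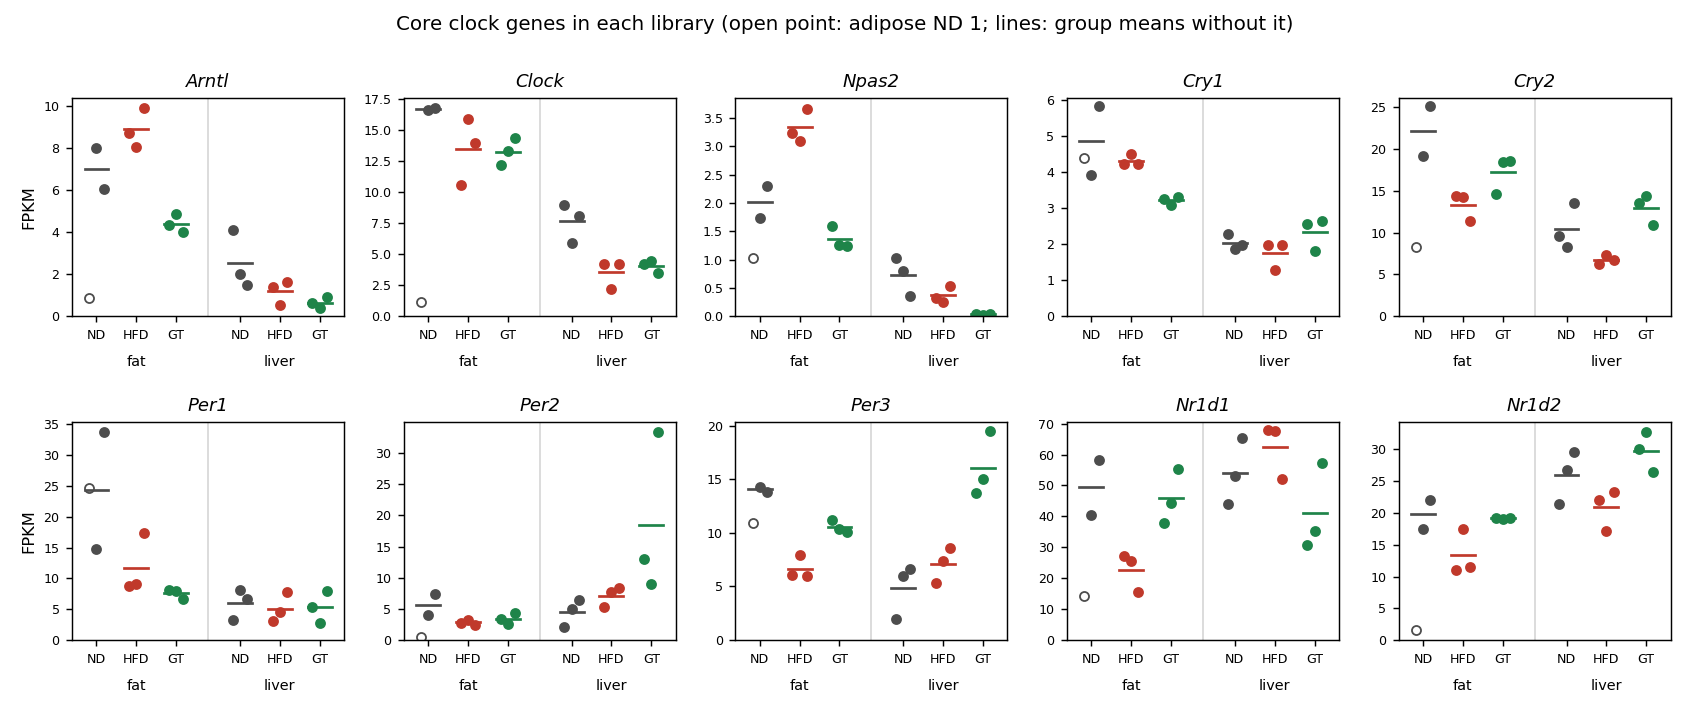
FPKM of the 10 clock genes in each library, by diet (ND, HFD, GT) within fat and within liver. Points are libraries, lines are group means, and the open point is adipose ND 1, which is left out of its line. In fat Arntl and Npas2 were high and Per3 and Nr1d1 low on HFD, while in liver Per2 and Per3 were high and Arntl and Npas2 low on GT.

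In epididymal fat 2 of the 3 activators, Arntl and Npas2, were highest on HFD. Arntl, the one activator the loop cannot run without, stood at 8.016 and 6.065 FPKM in ND 2 and ND 3, at 8.719, 8.086 and 9.919 on HFD and at 4.352, 4.857 and 4.026 on GT. Without ND 1, the ND, HFD and GT libraries thus did not overlap, with HFD on top and GT at the bottom. Npas2, which can stand in for Clock, kept the same order: 1.737 and 2.303 on ND, 3.239, 3.098 and 3.671 on HFD, and 1.597, 1.257 and 1.232 on GT. Clock, ARNTL's usual partner, was highest on ND, at 16.68 and 16.82, and read 10.56, 15.90 and 14.01 on HFD and 12.18, 13.35 and 14.35 on GT, so that HFD and GT overlapped. In ND 1 these activators read 0.877 (Arntl), 1.155 (Clock) and 1.027 (Npas2), below every other fat library.

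The repressors Per3, Nr1d1 and Cry2 of fat were lowest on HFD. Per3, a Period gene, stood at 14.29 and 13.84 FPKM on ND, fell to 6.089, 7.913 and 5.946 on HFD, and stood at 11.23, 10.35 and 10.06 on GT. These 3 ranges did not overlap, while ND 1 (10.91) lay within that of GT. Nr1d1, the receptor that represses Arntl, read 40.37 and 58.38 on ND, 27.09, 25.47 and 15.62 on HFD, and 37.90, 44.30 and 55.44 on GT. Without ND 1, each HFD library was thus below every ND and GT library for both genes, while for Nr1d1 ND and GT overlapped. Cry2, a cryptochrome, read 19.16 and 25.14 on ND, 14.38, 14.23 and 11.40 on HFD, and 14.63, 18.48 and 18.56 on GT, with every HFD library again below the others.

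The other 4 repressors of fat were less even. Nr1d2 stood at 17.51 and 22.12 FPKM on ND, 11.08, 17.52 and 11.57 on HFD, and 19.26, 19.12 and 19.21 on GT, where the 3 libraries were nearly equal. Per2 was low throughout, at 4.010 and 7.360 on ND, 2.456 to 3.278 on HFD and 2.547 to 4.303 on GT. Per1 is an acutely inducible Period gene. It was spread widely on ND (14.83 and 33.81, and 24.74 in ND 1) and read 8.764, 9.019 and 17.35 on HFD and 8.128, 7.914 and 6.694 on GT. Cry1 stood at 3.907 and 5.826 on ND, 4.216 to 4.504 on HFD and 3.100 to 3.306 on GT. Per1 and Cry1 differed from the other repressors in being lowest on GT. In ND 1 Nr1d2 (1.527), Per2 (0.526), Cry2 (8.240) and Nr1d1 (14.24) were below every other fat library, while Per1, Per3 (10.91) and Cry1 (4.404) were not.

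Between HFD and ND, 3 repressors were called lower in fat on HFD without ND 1. Per3 fell by 0.99 ± 0.15 on the log2 scale (14.1 ± 0.319 to 6.65 ± 1.10 FPKM, mean ± SD, n = 2 and 3; limma adjusted p = 0.00283), Nr1d1 fell by 1.10 ± 0.27 (adjusted p = 0.0195) and Cry2 fell by 0.69 ± 0.18 (adjusted p = 0.0235). These 3 of 10 clock genes compare with 27.4% of all genes tested called in either direction, a share near theirs, and 9.62% called lower. All 7 repressors had negative differences, of which that of Cry1 (-0.12) turned to 0.13 without ND 3 and HFD 1, and the clock genes had a median of -0.62 against 0.02 for all 12859 genes. Arntl (0.31 ± 0.17, adjusted p = 0.207) and Npas2 (0.53 ± 0.18, adjusted p = 0.0572) had positive differences that did not pass, and Clock read -0.31 ± 0.17 (adjusted p = 0.227). The 2 diets did not overlap for 7 of the 10 genes, 2 higher and 5 lower, against 50.2% of all genes tested in either direction. The Per3 call held without each of the other 8 libraries in turn (adjusted p 0.00413 to 0.0154). That of Nr1d1 ended without ND 3 (-0.84, adjusted p = 0.0826) and that of Cry2 without ND 3 or HFD 3 (adjusted p = 0.0901 and 0.082). With ND 3 and HFD 1, the next libraries in testis markers, left out as well, Per3 (-0.96, adjusted p = 0.0162) and Npas2 (0.68, adjusted p = 0.0495) were called, and Nr1d1 (-0.98, adjusted p = 0.0627) and Cry2 (-0.55, adjusted p = 0.0867) were not. That left 1 ND library, which is assumed to vary like the other groups.

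With all 9 fat libraries 0 of 10 clock genes were called by limma for HFD against ND, where 5.65% of all genes were, and 3 had an unadjusted p under 0.05. Per3 came nearest, at -0.87 ± 0.21 (adjusted p = 0.0513). Clock (0.70 ± 0.75) and Nr1d2 (0.46 ± 0.75) then had positive differences, the reverse of those without ND 1.

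Between GT and HFD, 2 activators were called lower in fat with the extract, again without ND 1. Arntl fell by 0.87 ± 0.15 (8.91 ± 0.931 to 4.41 ± 0.419 FPKM, n = 3 each; adjusted p = 0.0457) and Npas2 fell by 0.88 ± 0.16 (3.34 ± 0.299 to 1.36 ± 0.204; adjusted p = 0.0463). The 2 calls among 10 genes compare with 1.7% of all genes tested in either direction and 0.801% lower. Nr1d1 (1.00 ± 0.24, adjusted p = 0.0762), Per3 (0.60 ± 0.14, adjusted p = 0.0697), Nr1d2 (0.52 ± 0.18, adjusted p = 0.149) and Cry2 (0.35 ± 0.16, adjusted p = 0.245) had positive differences that did not pass. Per1 (-0.51 ± 0.34) and Cry1 (-0.33 ± 0.15) had negative ones. The 2 diets did not overlap for 8 of 10 genes, 4 in each direction, against 36.9% of all genes. Both calls lay near the threshold: that of Arntl ended without any 1 of the 6 HFD and GT libraries (adjusted p 0.052 to 0.231) and that of Npas2 without 5 of them, the exception being GT 1. With all 9 libraries in the fit limma called 0 of 10 clock genes and 0% of all genes, with 2 clock genes at an unadjusted p under 0.05 (Npas2 and Per3). The differences were then the same, since ND enters only through the spread.

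Against ND, Per1 alone among the 10 genes was called in fat of mice on GT, without ND 1. Per1 fell by 1.46 ± 0.38 (adjusted p = 0.0478), where 10.7% of all genes tested were called and 3.16% were lower. The count of 1 in 10 is thus near the share called in either direction. All 10 differences were negative, with a median of -0.37 against -0.05 for all genes, and 7 of the 10 did not overlap, all lower, against 24.2% of all genes lower and 45.5% in either direction. Arntl read -0.56 ± 0.17 (adjusted p = 0.066), Cry1 -0.46 ± 0.17 (adjusted p = 0.127) and Per3 -0.39 ± 0.15 (adjusted p = 0.137). Nr1d1 (-0.10 ± 0.27) and Nr1d2 (-0.03 ± 0.20) were near 0 and turned positive without ND 3 and HFD 1 (0.16 and 0.13), and Nr1d2 also at equal totals (0.01), at equal medians (0.03) and with a replicate block (0.02). The Per1 call ended without 6 of 8 single libraries (adjusted p 0.0124 to 0.135 over the 8), ended with the replicate number as a block (-1.40, adjusted p = 0.0911), and read -0.89 (adjusted p = 0.117) without ND 3 and HFD 1, where Arntl was called (-0.74, adjusted p = 0.049). ND 3 had the highest Per1 of all libraries. With ND 1 limma called 0 of 10, 1 at an unadjusted p under 0.05 (Per1, -1.50 ± 0.36, adjusted p = 0.116), and 0.639% of all genes.

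Cell markers moved with these fat groups. The 6 macrophage markers, each at 1 FPKM or more in the 8 libraries, summed to 421.8 and 547 FPKM in ND 3 and ND 2, 2750 to 3852 on HFD and 1158 to 2540 on GT, and none was listed at 0. The 7 adipocyte markers summed to 20361 and 31738 on ND, 16708 to 19142 on HFD and 23745 to 26748 on GT. They did not move as 1. Adipoq, Plin1, Cidec, Lipe and Retn were lower in each HFD library than in ND 2 and ND 3. Lep was higher there (322.7 and 316.6 on ND, 898.8, 1196 and 1186 on HFD), and Fabp4, the largest of the 7, overlapped between the 2 diets. The part of the macrophage and adipocyte markers in the clock gene differences was not tested. In bulk tissue fewer cells of a type and less RNA per cell cannot be told apart.

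In liver the order of the diets was another. Arntl stood at 4.123, 2.018 and 1.507 FPKM on ND, 1.396, 0.539 and 1.612 on HFD, and 0.611, 0.379 and 0.933 on GT. Each GT library was below every ND library, and HFD overlapped both. Npas2 was lower still, at 1.025, 0.798 and 0.351 on ND, 0.326, 0.249 and 0.536 on HFD, and 0.0306, 0.0192 and 0.0432 on GT. All 3 GT values of Npas2 lay under the other 6. It reached 1 FPKM in 1 liver library, fewer than the 3 required, so 9 of the 10 genes were tested in liver. Clock read 8.997, 5.937 and 8.098 on ND, 4.240, 2.171 and 4.231 on HFD, and 4.195, 4.466 and 3.492 on GT, so that each ND library was above the other 6.

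The repressors Per3 and Per2 of liver were highest on GT. Per3 stood at 1.938, 6.014 and 6.627 FPKM on ND, 5.314, 7.387 and 8.554 on HFD, and 13.75, 15.03 and 19.47 on GT, with every GT library above the other 6. Per2, a dose-sensitive Period gene, read 2.162, 5.044 and 6.422 on ND, 5.329, 7.682 and 8.375 on HFD, and 13.05, 8.978 and 33.33 on GT. Its GT libraries were again the top 3, but GT 3 alone was at 33.33. In both genes ND 1 was the lowest of the 9 libraries, and ND 1 was also the highest in Arntl and Clock.

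Cry2 was lowest in liver on HFD (6.280, 7.272 and 6.779 FPKM), against 9.608, 8.318 and 13.50 on ND and 13.54, 14.34 and 10.92 on GT. Nr1d2 read 21.40, 26.74 and 29.59 on ND, 22.08, 17.16 and 23.37 on HFD, and 30.05, 32.76 and 26.45 on GT, where GT lay above HFD and both overlapped ND. Nr1d1 was the most abundant clock transcript of liver, at 43.97, 52.98 and 65.28 on ND, 67.85, 67.68 and 52.24 on HFD, and 30.90, 35.24 and 57.26 on GT, with overlap between all 3 diets. Per1 (2.749 to 8.035 over the 9 libraries) and Cry1 (1.278 to 2.650) also overlapped between diets. Thus Nr1d1 and Nr1d2, which share targets, had their lowest liver means on different diets: 41.1 ± 14.1 FPKM on GT for Nr1d1 and 20.9 ± 3.28 on HFD for Nr1d2 (n = 3 each).

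A single clock gene was called in each liver comparison. Between HFD and ND, Clock fell by 0.95 ± 0.22 (7.68 ± 1.57 to 3.55 ± 1.19 FPKM, n = 3 each; adjusted p = 0.0154), 1 of 9 genes where 18.6% of all genes tested were called and 6.67% were lower. Cry2 (-0.54 ± 0.18, adjusted p = 0.0622) and Arntl (-0.67 ± 0.28, adjusted p = 0.11) did not pass. Clock and Cry2 were the 2 of 9 without overlap, both lower, against 21.3% of all genes lower and 44.9% in either direction. The Clock call ended without ND 1, ND 3 or HFD 2 (adjusted p = 0.0719, 0.0657 and 0.0632). HFD 2 had the lowest Clock of the 9 libraries and the most muscle RNA. Without HFD 2 and GT 3 together, Clock was still called.

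Between GT and HFD in liver, Cry2 rose by 0.83 ± 0.18 (6.78 ± 0.496 to 12.9 ± 1.79 FPKM; adjusted p = 0.0311), 1 of 9 genes where 5.36% of all genes were called and 1.14% were higher. Per3 (1.09 ± 0.32, adjusted p = 0.0749), Per2 (1.07 ± 0.42, adjusted p = 0.156), Nr1d2 (0.50 ± 0.17, adjusted p = 0.119) and Nr1d1 (-0.63 ± 0.24, adjusted p = 0.139) did not pass. The diets did not overlap for 4 of 9 genes, Per2, Per3, Cry2 and Nr1d2, all higher on GT, against 8.59% of all genes higher and 26.8% in either direction. The Cry2 call ended without 6 of the 9 libraries in turn, ND 1, HFD 1, HFD 2, HFD 3, GT 1 and GT 2 (adjusted p 0.0156 to 0.114 over the 9). It also ended in 3 of 9 other settings, among them equal FPKM totals (0.97, adjusted p = 0.0587) and no filter (0.83, adjusted p = 0.0589).

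Between GT and ND in liver, Per3 rose by 1.65 ± 0.32 (4.86 ± 2.55 to 16.1 ± 3.00 FPKM; adjusted p = 0.0256), 1 of 9 genes where 2.6% of all genes were called and 1.27% were higher. Per2 (1.69 ± 0.42, adjusted p = 0.064), Arntl (-1.06 ± 0.28, adjusted p = 0.0708) and Clock (-0.77 ± 0.22, adjusted p = 0.0986) did not pass. These 4 genes were the ones without overlap, 2 higher and 2 lower, against 21.6% of all genes. The Per3 call ended without ND 1 (1.21, adjusted p = 0.0546), GT 1 (adjusted p = 0.0573) or GT 3 (adjusted p = 0.0624). It ended as well without HFD 2 and GT 3 together (1.51, adjusted p = 0.0955), where Arntl was called (-1.18, adjusted p = 0.0448). In a fit with no filter Npas2 read -0.72 ± 0.14 for GT against ND (adjusted p = 0.0594). The muscle markers of liver summed to 0.623 to 3.356 FPKM on ND, 0.383 to 89.59 on HFD and 0.586 to 42.73 on GT. Their part in these differences was not tested.

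**Figure D2:**
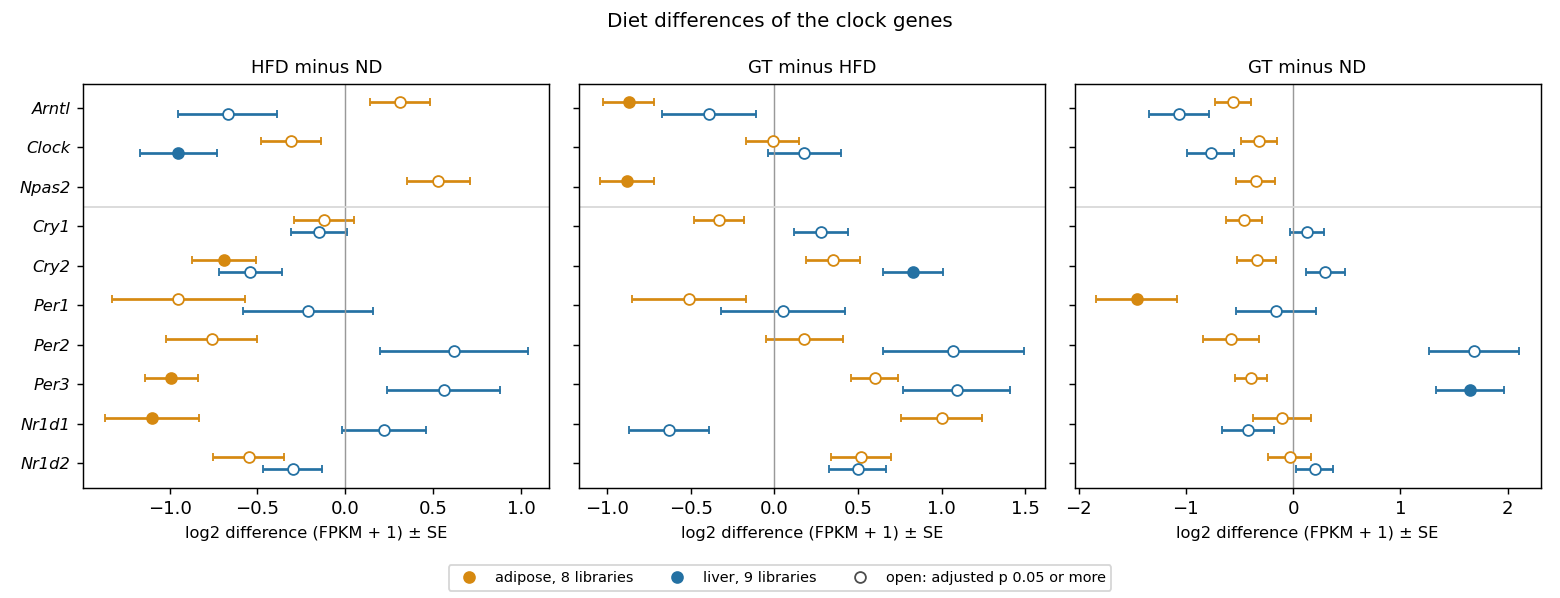
Log2 difference ± SE (limma, log2(FPKM + 1)) of each clock gene for the 3 diet comparisons, in fat without ND 1 (orange, 8 libraries) and in liver (blue, 9 libraries); filled points are called. For HFD against ND all 7 repressors were negative in fat (Per3 at -0.99, and Cry1 at -0.12, which turned to 0.13 without ND 3 and HFD 1), while Per2 and Per3 were positive in liver without passing (Per3 at 0.56). Npas2 of liver was not tested.

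The activator and repressor arms were then set against each other inside each library. A difference in scaling between libraries largely drops out there for genes well above 1 FPKM, but not for lower ones. The value is the mean log2(FPKM + 1) of the 3 activators minus that of the 7 repressors, given as a description with no test. In liver the activators include Npas2, which was too low to be tested, and Arntl, which was also low. In fat it was -0.86 and -1.38 in ND 2 and ND 3 (-1.81 in ND 1), -0.28, -0.32 and -0.02 on HFD, and -1.01, -1.0 and -1.15 on GT. HFD libraries were the highest of the 9, and the GT values lay between those of ND 2 and ND 3. In liver it was -0.69, -1.66 and -1.95 on ND, -1.85, -2.44 and -2.04 on HFD, and -2.68, -2.58 and -3.04 on GT. There the GT libraries were the lowest of the 9, and HFD overlapped ND. The hour of tissue collection is not in the labels used here, so its part in these differences was not tested.

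Ratios of single genes are given beside the arm means. Their genes are part of those means, so the ratios add no separate support. The ratio of Arntl to Nr1d1 was planned, and that of Arntl to Per3 was not. The ratio of Arntl to Per3 in FPKM was 0.561 and 0.438 in fat ND 2 and ND 3 (0.0804 in ND 1), 1.43, 1.02 and 1.67 on HFD, and 0.388, 0.469 and 0.400 on GT. Arntl thus exceeded Per3 in all 3 HFD libraries of fat and in no other fat library. In liver the ratio was 2.13, 0.336 and 0.227 on ND, 0.263, 0.0730 and 0.188 on HFD, and 0.0444, 0.0252 and 0.0479 on GT. Liver ND 1 was the sole liver library in which Arntl exceeded Per3. For Arntl to Nr1d1 the fat ratio was 0.199 and 0.104 in ND 2 and ND 3 (0.0616 in ND 1), 0.318 to 0.635 on HFD and 0.0726 to 0.115 on GT. In liver that ratio overlapped between diets (0.00797 to 0.0938). The comparisons HFD against ND and GT against HFD share the HFD libraries, so opposite signs in them are not independent.

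**Figure D3:**
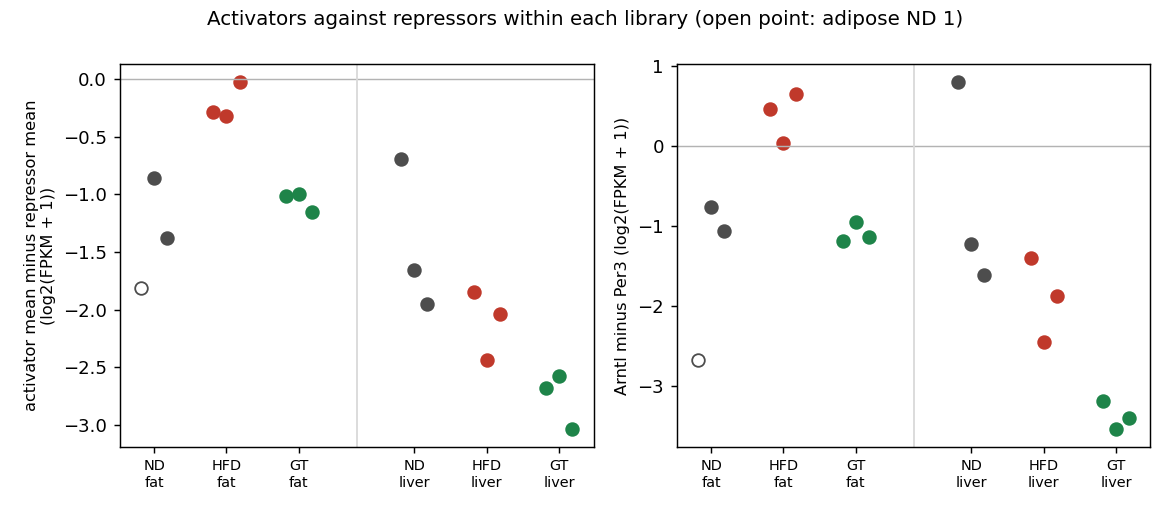
Left, mean log2(FPKM + 1) of Arntl, Clock and Npas2 minus that of the 7 repressors in each library; right, Arntl minus Per3 on the same scale. Points are libraries by tissue and diet, and the open point is adipose ND 1. The 3 HFD libraries of fat (-0.32 to -0.02 on the left) were above the other fat libraries, and the 3 GT libraries of liver (-3.04 to -2.58) were below the other liver libraries.

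Whether the differences between diet groups were unequal in the tissues was tested in 1 fit of both, as the liver difference minus the fat difference. The fit took liver and fat libraries as independent, which the labels do not settle. Without adipose ND 1, Per3 differed for HFD against ND by 1.55 ± 0.41 (0.56 in liver, -0.99 in fat; adjusted p = 0.0124) and Nr1d1 by 1.32 ± 0.37 (0.22 and -1.10; adjusted p = 0.0188). These were 2 of 9 clock genes, where 21.5% of all genes were called. For GT against HFD, Nr1d1 differed by -1.64 ± 0.35 (-0.63 and 1.00; adjusted p = 0.0187), 1 of 9 against 3.88% of all genes. For GT against ND, Per3 differed by 2.03 ± 0.41 (1.65 and -0.39; adjusted p = 0.00503) and Per2 by 2.28 ± 0.57 (1.69 and -0.58; adjusted p = 0.0192), 2 of 9 against 9.44%. Arntl did not pass for HFD against ND (-0.98 ± 0.36, adjusted p = 0.0639). Both Per3 calls held without each of the other 17 libraries in turn (adjusted p at most 0.0373 and 0.0155). Those of Nr1d1 ended without 3 single libraries each (adjusted p up to 0.0804 for HFD against ND and 0.0607 for GT against HFD), and that of Per2 without adipose ND 3 or GT 2 (adjusted p = 0.0731 and 0.0537). With all 18 libraries Per3 alone was called, for HFD against ND (1.44 ± 0.42, adjusted p = 0.0471, 8.53% of all genes called) and for GT against ND (1.92 ± 0.42, adjusted p = 0.0252, 2.74%). These calls ended without 13 and 4 of the 18 libraries. For GT against HFD limma called 0 of 9, 2 at an unadjusted p under 0.05 (Nr1d1 and Cry1), and 0.00996% of all genes.

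Levels also differed between the tissues on a given diet. With all 18 libraries Arntl was lower in liver than in fat on HFD (-2.22 ± 0.44, adjusted p = 0.000536) and on GT (-1.73 ± 0.44, adjusted p = 0.00375), and without adipose ND 1 also on ND (-1.24 ± 0.27, adjusted p = 0.000604). Per2 was higher in liver on GT (1.97 ± 0.54, adjusted p = 0.00577), while Per1 (-1.86 ± 0.40, adjusted p = 0.00134) and Per3 (-1.37 ± 0.30, adjusted p = 0.00142) were lower in liver on ND. Called clock genes numbered 3 of 9 on ND, 6 on HFD and 3 on GT, where 52.3%, 60.9% and 55.6% of all genes were called. Without adipose ND 1 they were 6, 8 and 4 of 9, against 71.8%, 77.6% and 74% of all genes. All genes had medians of -0.59, -0.75 and -0.66, so lower levels in liver were common. At equal median FPKM, which sets those medians to between -0.02 and 0.11, the calls just given held (Per1 and Per3 on ND, Arntl on HFD and GT, Per2 on GT). The other calls, of Clock, Cry1, Cry2 and Per1 on HFD, Cry1 on ND and Clock on GT, ended under it. Nr1d1 was higher in liver on HFD (1.45 ± 0.40, adjusted p = 0.00578), a call that ended at equal FPKM totals (0.80, adjusted p = 0.159).

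Among 12 output and partner genes of the clock, 11 were tested in each tissue, all but Rorb. In liver on HFD against ND 4 of 11 were called, all higher, with a median of 0.07 over the 11 against -0.02 for all genes, of which 18.6% were called in either direction. They were Ciart, a repressor of the ARNTL-CLOCK pair (0.445, 2.575 and 1.880 FPKM on ND and 4.927, 8.702 and 6.736 on HFD; 1.63 ± 0.34, adjusted p = 0.0109), the E-box repressor Bhlhe40 (1.32 ± 0.27, adjusted p = 0.0111), the D-box activator Dbp (1.35 ± 0.34, adjusted p = 0.0216) and the deubiquitinase Usp2 (0.97 ± 0.31, adjusted p = 0.0479). The Dbp call ended without ND 1 or HFD 2 (adjusted p = 0.0601 and 0.109), that of Ciart without HFD 2 (adjusted p = 0.0605) and that of Usp2 without 5 of the 9 single libraries (adjusted p up to 0.161). For GT against ND 3 of 11 were called, all higher, where 2.6% of all genes were called and 1.27% were higher, with a median of 0.74 against -0.05: Ciart (2.67 ± 0.34, adjusted p = 0.00439), Usp2 (1.97 ± 0.31, adjusted p = 0.0102) and Bhlhe40 (1.63 ± 0.27, adjusted p = 0.0134). Those of Ciart and Usp2 held without each of the 9 libraries in turn, and that of Bhlhe40 ended without ND 1 or GT 1 (adjusted p = 0.0568 and 0.0513). For GT against HFD limma called 0 of 11, 4 at an unadjusted p under 0.05, where 5.36% of all genes were called, and all 11 differences were positive, with a median of 0.40 against -0.04. The D-box activator Tef (0.86 ± 0.24, adjusted p = 0.0613) came nearest.

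In fat without ND 1, 5 of 11 output and partner genes were called for HFD against ND, 3 higher and 2 lower, where 27.4% of all genes were called, with a median of 0.32 against 0.02 for all genes. Tef fell from 43.13 and 55.83 FPKM on ND to 28.07, 32.53 and 30.98 on HFD (-0.67 ± 0.14, adjusted p = 0.011) and stood at 47.44, 42.45 and 47.61 on GT. The Arntl activator Rora fell by 0.55 ± 0.17 (adjusted p = 0.0431). Bhlhe41 rose by 0.78 ± 0.20 (adjusted p = 0.0215), Bhlhe40 by 0.94 ± 0.29 (adjusted p = 0.0427) and the D-box repressor Nfil3 by 0.54 ± 0.17 (adjusted p = 0.049). The Tef call held without each of the 8 libraries, and that of Nfil3 ended without any 1 of them. The Bhlhe40 call ended without 6 of the 8 (adjusted p up to 0.141) and that of Bhlhe41 without ND 2, HFD 1 or HFD 3 (adjusted p up to 0.0807). Rora (-0.69 ± 0.17, adjusted p = 0.0402) was also lower on GT than on ND, 1 of 11 called where 10.7% of all genes were, and for GT against HFD limma called 0 of 11, 3 at an unadjusted p under 0.05. The Rora calls ended without 6 and 5 of the 8 single libraries. With ND 1 in the fit limma called 0 of 11 in each of the 3 comparisons, with 2, 1 and 2 at an unadjusted p under 0.05.

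**Figure D4:**
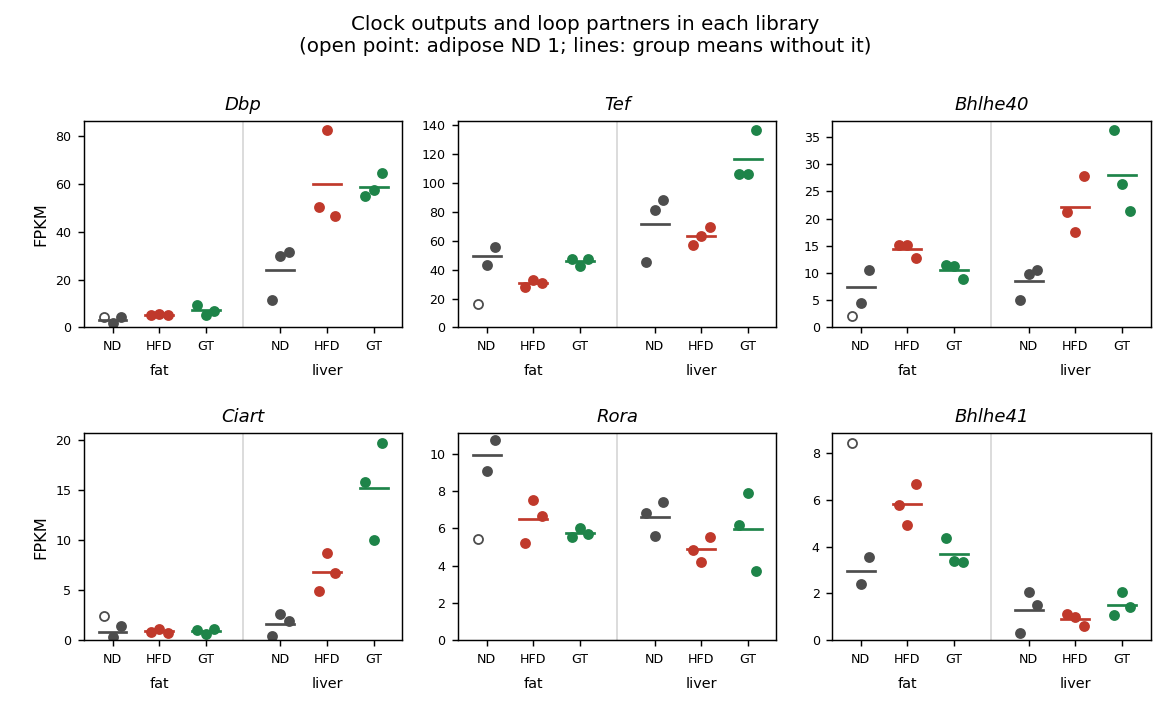
FPKM of 6 output and partner genes in each library, by diet within fat and within liver; lines are group means and the open point is adipose ND 1, left out of its line. Ciart rose in liver from 0.445 to 2.575 FPKM on ND to 9.974 to 19.73 on GT, and Tef of fat stood at 43.13 and 55.83 in ND 2 and ND 3 and at 28.07 to 32.53 on HFD.

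Among 18 modifiers of the clock proteins, which are kinases, ubiquitin ligase parts and partners, 17 were tested in liver and 18 in fat. In liver on HFD against ND the F-box protein Fbxl21, which targets CRY, rose by 0.96 ± 0.20 (adjusted p = 0.0111) and the ubiquitin ligase Ube3a fell by 0.53 ± 0.15 (adjusted p = 0.0306), 2 of 17 where 18.6% of all genes were called, with a median of -0.33 over the list. The Fbxl21 call ended without ND 1 (adjusted p = 0.052) and that of Ube3a without ND 1, ND 3, HFD 1 or HFD 2 (adjusted p up to 0.129). For GT against HFD and GT against ND limma called 0 of 17 in liver, 3 and 2 at an unadjusted p under 0.05. In fat without ND 1 the AMP kinase subunit Prkaa2 was lower on HFD than on ND (-0.66 ± 0.18, adjusted p = 0.0257) and on GT than on ND (-0.70 ± 0.18, adjusted p = 0.0423), and casein kinase Csnk1d, which marks PER for decay, was lower on GT than on ND (-0.53 ± 0.13, adjusted p = 0.0393). These were 1 of 18 for HFD against ND, where 27.4% of all genes were called, and 2 of 18 for GT against ND, where 10.7% were. These calls ended without 4, 6 and 7 of the 8 single libraries. With ND 1 limma called 0 of 18 in each comparison, with 0, 0 and 1 at an unadjusted p under 0.05. For GT against HFD limma called 0 of 18, with 0 at an unadjusted p under 0.05.

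Within a tissue the clock genes followed Arntl to differing degrees, given here as Pearson's r of log2(FPKM + 1) over libraries that share diets and tissue composition, with no test. Over the 9 liver libraries Arntl ran with Npas2 (0.91) and Clock (0.75), against Per3 (-0.83) and Per2 (-0.66), and near 0 with Per1 (0.08) and Nr1d1 (0.17). Over the 8 fat libraries it ran with Npas2 (0.87), against Nr1d1 (-0.76) and Nr1d2 (-0.73), and near 0 with Clock (0.07). Nr1d1 ran with Cry2 (0.91), Nr1d2 (0.83) and Per3 (0.82) in fat, whereas in liver its r with these was -0.60, -0.57 and -0.28.

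Among other genes with a range of at least 1 on the log2 scale, those most like Arntl in liver (3592 genes) included Abtb2 (0.952), Pdgfc (0.919), Mpzl1 (0.916) and Asap2 (0.914). Those most opposite were Apol9a (-0.934), Slc5a6 (-0.924), Acy1 (-0.916), the clock output Dbp (-0.914) and Map2k6 (-0.913). For Nr1d1 in liver the closest were Oas1g (0.896), Krtcap3 (0.876), Tead2 (0.857), Ecm1 (0.849) and Trp53i11 (0.839), and the most opposite Zfp655 (-0.905), Slc6a9 (-0.866), Fzd4 (-0.860), Slc41a2 (-0.852) and Mapk6 (-0.848). In fat (4723 genes) the closest to Arntl were Pdgfra, a growth factor receptor of stromal cells (0.958), Tnfaip6 (0.930), Cdh11 (0.925), Cyp1b1 (0.916) and Gfpt2 (0.902), and the most opposite Lhx6 and Pnpla3 (both -0.951), Tmem179 (-0.949), Mmrn2 (-0.942) and Eln, which encodes elastin (-0.929). For Nr1d1 in fat the closest were Hspa12b (0.988), Cd300lg (0.974), Adcy6 (0.970), Palm and Robo4 (both 0.968), and the most opposite included Nol7 (-0.969), Psmg4 (-0.968), Mrps24 (-0.960) and Cma1 (-0.959). Robo4 and Cd300lg are genes of endothelium, whose 4 markers summed to 183.4 to 258.6 FPKM in these 8 libraries.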

How the data were processed

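The authors deposited 1 table of FPKM per gene for 18 libraries, taken unaltered as deposited; every value column belongs to a sample (0 do not). The tools in the submitters' processing notes are Cufflinks 2.1.1, STAR 2.4.0 and CASAVA 1.8.2. The build the authors used is not given in the sources. Of 23474 identifiers 22671 matched a symbol in GENCODE M21. Promoter sequences are RefSeq's (GRCm38.p6).

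FPKM is not a count, so limma 3.58.1 under R 4.3.3 was run on log2(FPKM + 1), 1 mean for each diet, with trended and robust empirical Bayes moderation. A gene entered where 3 libraries of the tissue reached 1 FPKM: 13762 genes in fat (12859 without ND 1), 10670 in liver, and 10042 (9957) in the fit of both tissues. P-values were adjusted by Benjamini-Hochberg over all genes of a comparison. The fit was tested on simulated data. All 10 clock genes are named. Of 2 lists, 12 outputs and partners and 18 modifiers, up to 4 members per comparison were open to naming, with further called genes named after their values were seen. Genes most like Arntl or Nr1d1 were ranked by r. A few genes are not reported here. The members and lists were chosen with earlier results of these data known. Alternatives were an added 0.1, no filter, a filter at 5 FPKM, equal totals or medians, a plain variance prior, only the compared diets, a replicate block and each library left out. Those for the fit without ND 1, for leaving out ND 3 and HFD 1 or liver HFD 2 and GT 3, and leaving single libraries out of the tissue differences were added after seeing the data. Tables and plots were made with pandas 2.3.3, matplotlib 3.10.9 and NumPy 2.4.6 under Python 3.11.15.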

Additional observations from a re-analysis of the deposited data

Results flagged for a closer look

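Responses of 3 clock genes differed between liver and fat by the test of the difference itself, as the liver response minus the fat response in limma. With all 18 libraries Per3 differed for HFD against ND (1.44 ± 0.42, adjusted p = 0.0471) and for GT against ND (1.92 ± 0.42, adjusted p = 0.0252), where 8.53% and 2.74% of all genes were called. These calls ended without 13 and 4 of the 18 libraries. Without adipose ND 1 Per3 differed for the same comparisons (1.55 and 2.03, adjusted p = 0.0124 and 0.00503), Nr1d1 for HFD against ND (1.32, adjusted p = 0.0188) and for GT against HFD (-1.64, adjusted p = 0.0187), and Per2 for GT against ND (2.28, adjusted p = 0.0192). These were 2, 1 and 2 of 9 clock genes for HFD against ND, GT against HFD and GT against ND, where 21.5%, 3.88% and 9.44% of all genes were called, so the count for HFD against ND is near that of all genes.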

How the results depend on the processing

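No reversed value belonged to a called clock gene: 57 values changed sign, with a smallest adjusted p of 0.066. Of the other values of single genes 2156 kept their side of the threshold, 207 lost a call and 72 gained one. The number of called clock genes changed as follows, and the cause was not tested. In fat with 9 libraries HFD against ND went from 0 to 1 (filter at 5 FPKM, and equal median FPKM) and GT against HFD from 0 to 4 (only the 2 diets compared). Without ND 1, HFD against ND went from 3 to 6 at equal medians and 1 with a replicate block. GT against HFD went from 2 to 1 with an added 0.1, at equal totals and without ND 3 and HFD 1, to 0 with no filter, equal medians, a plain variance prior or the replicate block, and to 4 with 2 diets. GT against ND went from 1 to 0 with no filter, equal totals, a plain prior, 2 diets or the block. In liver HFD against ND went from 1 to 2 (2 diets), GT against HFD from 1 to 0 (no filter, equal totals) and 2 (2 diets), and GT against ND from 1 to 0 (no filter, 2 diets) and 2 (replicate block). The tissue difference of HFD against ND with 18 libraries went from 1 to 0 (an added 0.1, equal totals) and 2 (no filter), and that of GT against ND from 1 to 0 (equal totals). Replicate numbers were not taken to pair the samples, as the labels give them no shared source. Libraries of the same number correlated over 0.1 in 6 of 9 pairs in fat (-0.07 to 0.64) and 4 of 9 in liver (-0.3 to 0.42). Pairs of unlike number were not set beside them, so these correlations cannot show whether replicate numbers pair the samples. The highest in fat was that of ND 1 and HFD 1 (0.64), both of which held testis transcripts. The 3 pairs of ND and GT in fat all correlated over 0.1 (0.26, 0.12 and 0.19). Signs that changed were, in fat with 9 libraries for HFD against ND, Cry1 (0.19), Cry2 (0.06) and Per2 (0.06) at equal totals and Per2 (0.12) with an added 0.1, and for GT against ND Per3 (0.01) at equal totals. Clock turned to 0.14 (0.13 without ND 1) at equal medians for GT against HFD. Without ND 3 and HFD 1, Cry1 (0.13) turned for HFD against ND, and Nr1d1 (0.16) and Nr1d2 (0.13) for GT against ND, where Nr1d2 also read 0.01 at equal totals, 0.03 at equal medians and 0.02 with the block. In liver Per1 read -0.27 for GT against HFD without HFD 2 and GT 3. For liver against fat Clock on ND read 0.11 (an added 0.1) and 0.55 (equal medians) and Cry2 0.02 (equal medians), on HFD Nr1d2 read -0.01 and Per3 -0.51 (equal totals), and on GT equal medians gave Per1 0.24, Nr1d1 0.68, Cry1 0.29 and Cry2 0.44.

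Leaving out 1 library at a time gave these ranges of called clock genes: in fat with 9 libraries 0 to 3, 0 to 2 and 0 to 1 for HFD against ND, GT against HFD and GT against ND; without ND 1 2 to 5, 0 to 4 and 0 to 3; in liver 0 to 2 in each. Tissue differences ranged over 0 to 2, 0 to 1 and 0 to 2 with 18 libraries, and over 1 to 3, 0 to 1 and 1 to 3 without ND 1. Liver against fat on ND gave 6 in place of 3 without adipose ND 1, with Per2 at -0.31. Genes whose sign changed ranged, in fat with 9 libraries for HFD against ND, over -0.55 to 1.05 (Nr1d2), -0.31 to 1.21 (Clock), -0.76 to 0.46 (Per2), -0.69 to 0.06 (Cry2) and -0.19 to 0.05 (Cry1), and for GT against ND over -0.56 to 0.57 (Arntl), -0.32 to 1.21 (Clock), -0.35 to 0.00 (Npas2), -0.58 to 0.64 (Per2), -0.34 to 0.41 (Cry2), -0.10 to 0.88 (Nr1d1) and -0.03 to 1.56 (Nr1d2). Clock for GT against HFD ranged over -0.16 to 0.11 with and without ND 1. Without ND 1 Cry1 ranged over -0.36 to 0.12 (HFD against ND), Nr1d1 over -0.36 to 0.16 and Nr1d2 over -0.20 to 0.13 (GT against ND). In liver Per1 ranged over -0.52 to 0.05, -0.24 to 0.39 and -0.47 to 0.18, and Clock over -0.06 to 0.31 (GT against HFD). Over all genes the number called for HFD against ND was 777 in fat (59 to 3527 with a library left out) and 1980 in liver (460 to 3367). For GT against ND it was 88 (0 to 2544) and 277 (49 to 428), for GT against HFD 0 (0 to 218) and 572 (43 to 1240). Without ND 1 fat gave 3527, 218 (0 to 866) and 1370 (145 to 2632). At equal totals the liver split for HFD against ND was 611 higher and 850 lower in place of 1268 and 712, with the median of all genes at -0.20. Where 1 ND library was left it is assumed to vary like the other groups. The number of reads per library was not used here, so the depth behind each FPKM is unknown.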
